A study of Mus musculus with 6 samples.

Results

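The 35 genes described here encode aminoacyl-tRNA synthetases, among the 30330 genes for which the table of whole-colon RNA lists a value. They were taken by name, and the transcript levels of each gene were summed. Their list was drawn up with the levels in these libraries known, and Lars2 in particular was included for how it behaved in them. The differences between genotypes given for the members are therefore descriptions, and counts of members past a threshold stand beside those of all genes without support being drawn from them. By the ending of the symbol, 16 members are mitochondrial enzymes and 17 are cytosolic, while Gars and Kars each make an enzyme for both compartments. All 35 passed the filter on low values.

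The R1ko group held 3 male mice of genotype Tnfrsf1a-/-, and the WT group held 3 wild-type males. All were 12 weeks old and of strain C57Bl/6J. Tnfrsf1a encodes tumour necrosis factor receptor 1, and which part of it R1ko mice lack was not stated in the labels. Levels are in TPM, the unit of kallisto, a share of all RNA that is scaled for transcript length, so that levels of different genes can be compared. Because whole colon mixes many cell types, fewer cells of a type and less RNA per cell cannot be told apart.

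The full-length Tnfrsf1a transcript, ENSMUST00000032491, measured 23.5, 20.4 and 25.6 TPM in R1ko replicates 1, 2 and 3, against 67.6, 39.9 and 59.1 TPM in WT replicates 1, 2 and 3, without overlap. The shorter transcript ENSMUST00000125880 ran the other way, at 18.0, 12.4 and 14.1 TPM in R1ko, against 1.20, 1.20 and 0.89 TPM in WT. Summed over transcripts, Tnfrsf1a measured 49.2, 36.5 and 46.9 TPM in R1ko, against 71.2, 44.1 and 63.0 TPM in WT, with overlap. All 6 colon epithelium markers and all 4 smooth muscle markers had values in the table. Transcripts without a gene name held between 1.86 and 7.23% of TPM in R1ko libraries and between 2.79 and 27.4% in WT libraries, with the highest share in WT replicate 2. TPM sum to a fixed total, so such transcripts lower the values of all others in that library. Values were for this reason also divided by median-of-ratios factors, which were 1.06, 0.918 and 1.07 for R1ko and 1.13, 0.786 and 1.10 for WT. These are called scaled values below.

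A synthetase joins an amino acid to the tRNAs that carry its codons. The cytosolic enzymes feed the ribosomes of the cytoplasm, and several of them sit together in a large multi-synthetase complex. The mitochondrial enzymes are also encoded in the nucleus, are imported, and serve the few proteins that mitochondria translate themselves. When amino acids are scarce, the transcription factor ATF4 raises many cytosolic synthetase genes, while nuclear respiratory factor NRF1 is known as a regulator of nuclear genes for mitochondria.

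Promoters were searched for 3 motifs, and matches are shown because those to the ATF4 and NRF1 cores fell in genes of different compartments. RefSeq promoter windows of 300 bases (250 before the start, 50 after, build GRCm38.p6) were at hand for 26 of the 35 members. The core of the composite ATF4 and C/EBP site, TGATGNAA on either strand, occurred in 4 of 10 cytosolic genes (Aars, Iars, Tars and Yars), in Gars, and in 0 of 14 mitochondrial genes. Among all 27025 genes with a window, 4.51% held it. The NRF1 core, GCGCATGC on either strand, occurred in 3 of 14 mitochondrial genes (Rars2, Vars2 and Wars2) and in 0 of 10 cytosolic ones, against 3.05% of all genes. The E-box CACGTG, which reads the same on both strands, was in 4 of 10 cytosolic windows (Aars, Farsb, Iars and Tars) and in 1 of 14 mitochondrial windows, that of Ears2, against 8.09% of all genes. No matches overlapped in these windows. A match is a description of the letters and not evidence of binding. The stretches below run 5′ to 3′ on the strand of the gene, with the matched letters in capitals.
Gars, chr6:55037960-55037989, plus strand, TGATGNAA core: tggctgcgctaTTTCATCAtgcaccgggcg
Tars, chr15:11399659-11399684, minus strand, TGATGNAA core: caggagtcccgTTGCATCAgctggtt
Rars2, chr4:34614895-34614924, plus strand, NRF1 core: cggccccgtgtGCATGCGCactccacactt
Vars2, chr17:35667620-35667649, minus strand, NRF1 core: gagtcttttacGCATGCGCctgcgtgtccc
Vars2, chr17:35667594-35667623, minus strand, NRF1 core: tccccgcccacGCATGCGCgcgcacctcgc
Wars2, chr3:99141015-99141044, plus strand, NRF1 core: ccagaggacagGCGCATGCgtagtaagcac
In GENCODE M21 the Rars2 stretch overlaps exon 1 of Orc3, which is transcribed from the opposite strand, and the last bases of the Tars stretch overlap exon 1 of Tars. The matches to TGATGNAA in Iars and Yars lay after the start.

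Lars2 (ENSMUSG00000035202, mm10 chr9:123366927-123462664 on the plus strand) encodes the mitochondrial leucyl-tRNA synthetase, which in humans is among the genes mutated in Perrault syndrome, a loss of hearing with ovarian failure. Its window held none of the 3 motifs. The 100 bases before its start are given for comparison with the genes above.
Lars2, chr9:123366827-123366926, plus strand: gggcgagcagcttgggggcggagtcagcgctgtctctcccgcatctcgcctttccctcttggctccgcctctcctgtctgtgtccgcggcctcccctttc

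Lars2 stood far above and apart from the rest of its family. It measured 1370, 4225 and 806 TPM in R1ko replicates 1, 2 and 3, against 2249, 15544 and 1468 TPM in WT replicates 1, 2 and 3. WT replicate 2 was far above every other library, R1ko replicate 2 came next, and the groups overlapped. The lowest library, R1ko replicate 3, lay 19.3-fold below the highest. After scaling the spread was 26.2-fold, wider than before.

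The level of Lars2 exceeded that of the next synthetase in every library. The ratio was 8.81, 29.5 and 4.95 in R1ko, against 14.3, 146.5 and 9.37 in WT. Against the sum of the 34 others, Lars2 amounted to 1.11, 3.88 and 0.643 times in R1ko and 1.67, 16.4 and 1.14 times in WT. In R1ko replicate 3 alone, the 34 others together exceeded Lars2. Lars2 ranked 89, 13 and 176 among all genes in R1ko libraries, and 42, 4 and 86 in WT libraries. It took 1.55% of all TPM in WT replicate 2 and between 0.0806 and 0.422% in the other libraries.

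**Figure D1:**
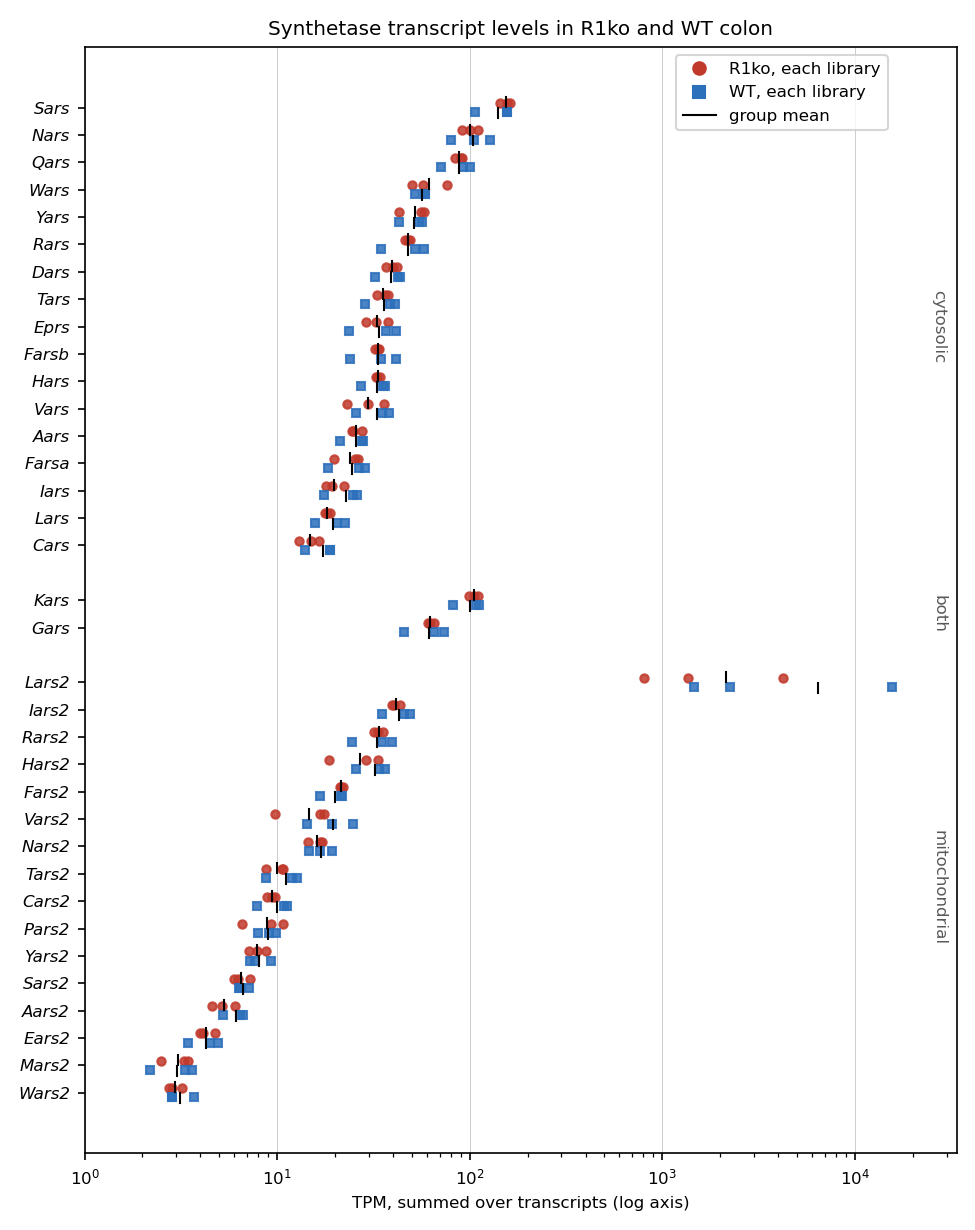
TPM of each synthetase gene on a log axis, with R1ko libraries as circles above WT libraries as squares and black ticks at the group means; genes are grouped by compartment and ordered by level. Lars2 lies between 806 and 15544 TPM, while the 34 others stay under 163 TPM.

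The genotype means of Lars2 were 2134 ± 1833 TPM in R1ko and 6420 ± 7911 TPM in WT (SD, n = 3 each). On the scale of log2(TPM + 0.5) the difference was −1.15, with an SE of 0.51 that limma draws towards the spread of other genes. With scaled values the difference was −1.18 and the SE 1.08, and in the fit of single transcripts the SE was 0.80. The SD between replicates on this scale was 1.55, larger than the difference. Single libraries weighed heavily on the difference, which was −0.12 without WT replicate 2 and −0.63 without R1ko replicate 3. It was −1.82 with either R1ko replicate 2 or WT replicate 3 left out. The genotype contrast was part of how Lars2 was chosen, so no p is given.

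To say how far a gene lay from its family, the log2 values of each member were centred on their own mean over the 6 libraries and set against the median profile of the other members. The root mean square difference of Lars2 was 1.52. For the 34 others it ran between 0.031 in Tars and 0.309 in Vars2, with a median of 0.0967. Lars2 remained apart without WT replicate 2, at 0.842. By the same measure taken from Lars2, its closest fellow synthetase was Sars2, encoding the mitochondrial seryl enzyme, at a difference of 1.44, rank 925 among the tested genes.

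A single transcript carried the whole of the Lars2 value. The table listed 9 Lars2 transcripts, of which ENSMUST00000038863 had values and 8 had none. This transcript of 3894 bases has 21 exons, and its 3′ UTR of 986 bases starts at 123461679. Of its 3864 stretches of 31 bases, 42 also occurred in transcripts of other genes in GENCODE M21, and 26 of these were in AA474408, a gene on chromosome 7 of the annotation's class TEC, a transcript still to be tested by experiment. An alignment of 196 positions with 80.1% identity joined AA474408 to Lars2 at chr9:123461933-123462119. An antisense transcript of Gm15564, for which no TPM was listed, matched inside that interval over 72 bases with 98.6% identity. Every alignment found to the 8 other genes lay in the 3′ UTR of Lars2.

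The genes most like Lars2 across libraries were not synthetases. AA474408 was the closest of all tested genes, with a root mean square difference of 0.0932. It measured 202.7, 579.6 and 115.0 TPM in R1ko, against 305.8, 1948 and 224.1 TPM in WT. Its ratio to Lars2 stayed between 0.125 and 0.153 in all 6 libraries. The 4 genes that followed were Hist2h2bb at 0.246, Gm20594 and Hist1h2bb each at 0.367, and Cphx3 at 0.434. Hist2h2bb, Hist1h2bb and Cphx3 reached the mean of 1 TPM that the filter asks only through WT replicate 2, at 9.17, 5.68 and 5.28 TPM. A peak in that library was thus a condition for these 3 genes to be tested, and their likeness to Lars2 supports nothing. The Hist genes encode core histone proteins of the group whose messenger RNAs mostly end without a poly(A) tail, and Cphx3 is a homeobox gene. Hist2h2bb was low, with 0.162, 1.68 and 0 TPM in R1ko, against 1.15, 9.17 and 0.155 TPM in WT. Gm20594, a predicted gene, was high, with 935.5, 1876 and 658.6 TPM in R1ko, against 1472, 6390 and 688.6 TPM in WT.

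Transcripts to which the table gives no gene moved with Lars2 too. ENSMUST00000160554 measured 16358, 43027 and 9714 TPM in R1ko, against 23470, 174580 and 18478 TPM in WT. Its level per TPM of Lars2 stayed between 10.2 and 12.6. ENSMUST00000117472 measured 3843, 23856 and 2791 TPM in R1ko, against 10873, 94692 and 3198 TPM in WT, and followed less closely, with a root mean square difference of 0.541. Lars2, AA474408 and ENSMUST00000160554 gave the 6 libraries the same order, in which R1ko replicate 3 was lowest and WT replicate 2 highest. Neither transcript was in the annotation used here, so what they are is not stated. The values of AA474408, which shares sequence with Lars2, of the gene-less transcripts and of Lars2 moved together in these libraries. The part of shared sequence and of the gene-less transcripts in the Lars2 value was not tested.

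**Figure D2:**
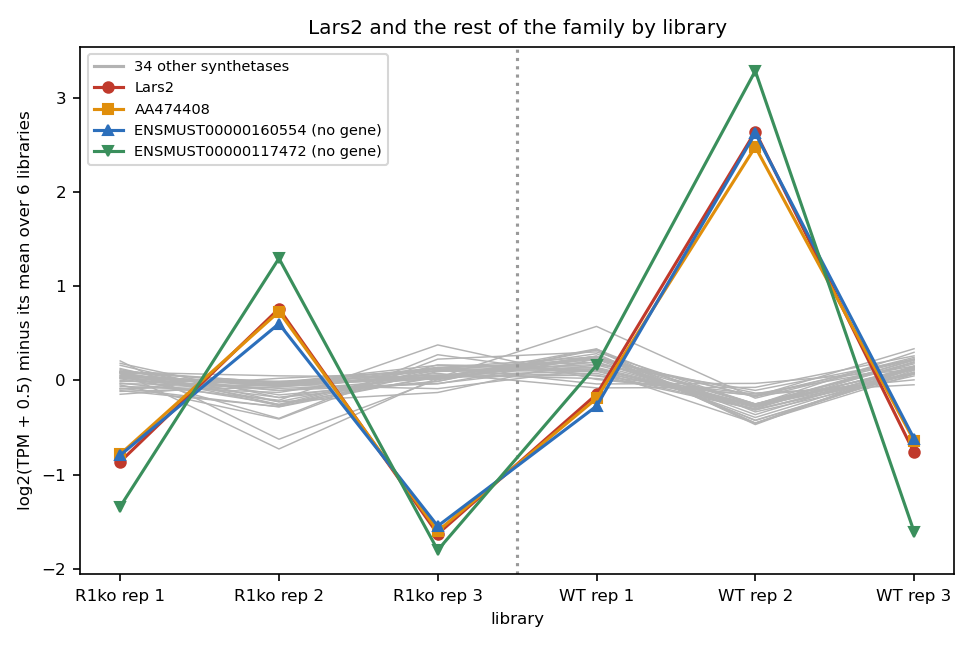
Level of each gene or transcript in each library as log2(TPM + 0.5) minus its own mean, for the 34 other synthetases (grey), Lars2, AA474408 and the gene-less transcripts ENSMUST00000160554 and ENSMUST00000117472; the dotted line divides R1ko from WT. The coloured lines peak in WT replicate 2 and again in R1ko replicate 2, where the grey lines lie near or below 0.

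The likeness of histone transcripts to Lars2 was looked at further, with a list made after these values were seen. Of 69 replication-dependent histone genes 55 were tested, and 37 of them were highest in WT replicate 2, beside 0.976% of all tested genes. That peak is what the list was made for, so the count supports nothing. None passed the adjusted threshold, where 0.267% of all genes did. An unadjusted p under 0.05 (limma) was found for 5, where 3.69% of all genes had one. Their summed level did not follow Lars2, at 1473, 1467 and 1611 TPM in R1ko and 1527, 1220 and 1351 TPM in WT. Of 17 ribosomal RNAs and related gene models looked for, 12 were in the table and 0 had a value.

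The tested genes that flank Lars2 on chromosome 9 did not share its peak in WT replicate 2 with TPM as deposited. Exosc7, encoding a subunit of the RNA exosome, measured 47.9, 41.8 and 46.4 TPM in R1ko, against 53.9, 37.1 and 50.4 TPM in WT. Of 8 neighbours looked up 7 were tested, and 0 of these were highest in WT replicate 2, where 0.976% of all genes were. Of the 7, 0 passed the threshold, where 0.267% of all genes did, with a median log2 fold change of −0.04. The smallest p belonged to Clec3b, the gene of tetranectin, with a log2 fold change of −0.35, and to Tmem158, also at −0.35.

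With TPM as deposited, the synthetases other than Lars2 had similar values in both genotypes. Of 34, 0 passed an adjusted p of 0.05 (limma, Benjamini-Hochberg), where 0.267% of 14248 genes did, and 0 had an unadjusted p under 0.05, where 3.69% of genes did. After scaling, Cars, Iars and Vars2 had an unadjusted p under 0.05, 3 of 34 where 11.3% of genes did, and after rescaling over transcripts with a gene 7 did, where 12.1% of genes did. The R1ko and WT libraries overlapped for all 34, while 4.98% of all genes had groups apart. The log2 fold changes ran between −0.41 in Vars2 and 0.16 in Sars, 15 above 0 and 19 below, where 55.7% of all genes lay above 0. Their median was −0.02, beside 0.02 over all genes. After scaling, 8 of the 34 lay above 0, where 49.4% of all genes did.

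Scaled values narrowed the spread of these genes. From the lowest to the highest library they differed by a median of 1.45-fold with TPM as deposited and 1.20-fold after scaling, where all genes had 1.60-fold and 1.34-fold. As deposited, 22 of the 34 were lowest in WT replicate 2 and 10 in R1ko replicate 2, and 0 were highest in WT replicate 2. The share of all genes lowest in WT replicate 2 was 67.9%. After scaling, 6 of the 34 were lowest and 12 highest in WT replicate 2, where 19.2% of all genes were lowest. The summed level of the 34 was 1231, 1089 and 1254 TPM in R1ko, against 1347, 946 and 1293 TPM in WT. After scaling it was 1158, 1187 and 1176 in R1ko, against 1191, 1204 and 1177 in WT, so that all 6 libraries lay close together.

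After scaling, the groups of 5 members no longer overlapped, Sars higher and Cars, Iars, Tars2 and Vars2 lower in R1ko. This share of the 34 is below the 18.5% of all genes that were apart after scaling, and 0 passed the adjusted threshold, where 0.0421% of genes did. Without WT replicate 2, 33 of the 34 had a log2 fold change below 0, where 20.5% of all genes lay above 0. Their median was −0.16 beside −0.13 over all genes. In that setting 18 of the 34 had groups apart, all lower in R1ko. This is a larger share than the 28.3% of all genes apart in that direction. With TPM rescaled over transcripts with a gene and WT replicate 2 kept, 33 of the 34 were again below 0. The median there was −0.14 beside −0.10 over all genes. Groups were apart for 14 of the 34, all lower in R1ko, again a larger share than the 18.0% of all genes apart in that direction. The median of the 34 was above 0 without R1ko replicate 2 (0.04), WT replicate 1 (0.08) or WT replicate 3 (0.04). The sign of the family's median therefore changed with the libraries included.

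**Figure D3:**
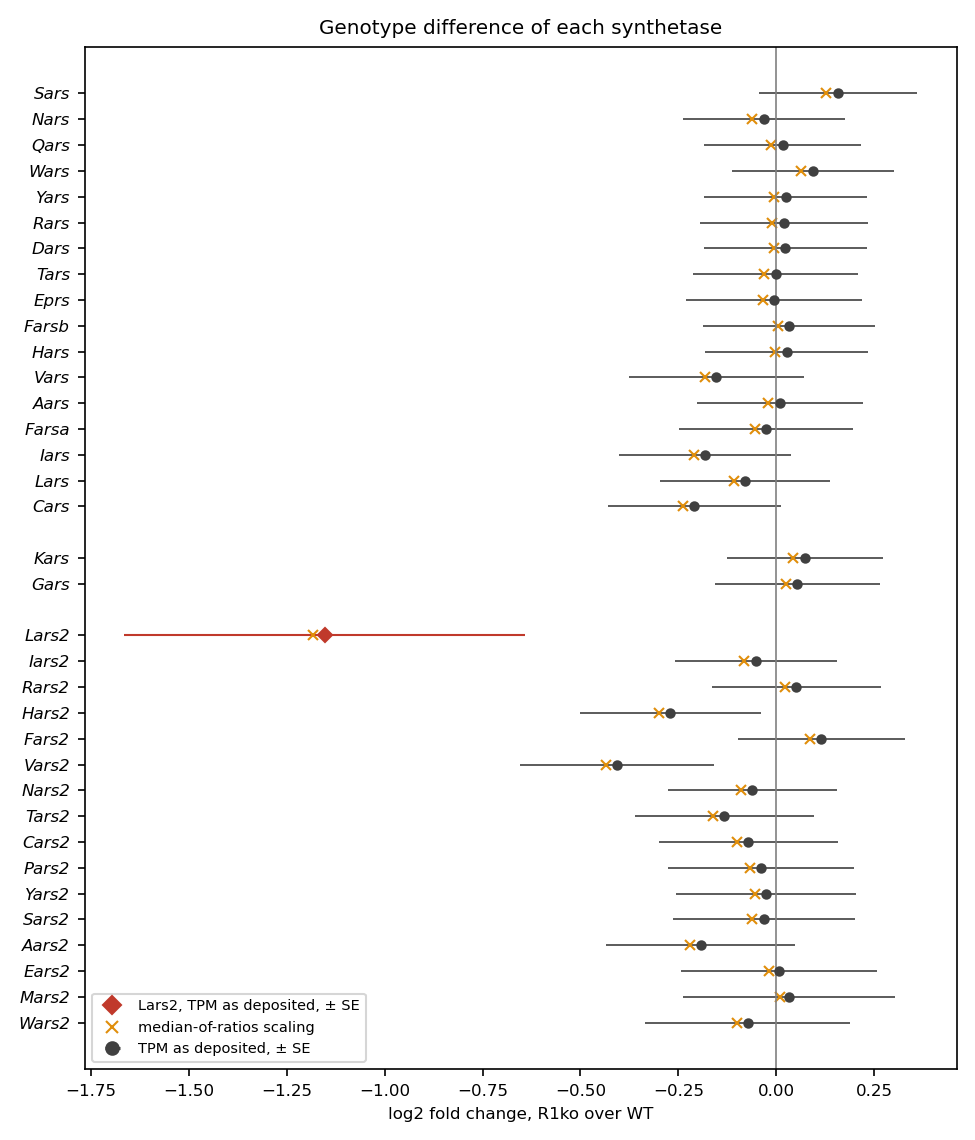
Log2 fold change of each synthetase, R1ko over WT, as points with the standard error of the limma fit (TPM as deposited) and as crosses after median-of-ratios scaling; the line marks 0. Lars2 stands at −1.15, and the others lie between −0.41 and 0.16. The bar of Lars2, 0.51, is narrower than its SE after scaling, 1.08, and than the SD between its replicates, 1.55.

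Among the cytosolic enzymes, Sars, the seryl-tRNA synthetase, was the most abundant. It measured 155.5, 143.2 and 162.7 TPM in R1ko, against 156.9, 106.1 and 156.7 TPM in WT. Nars, which charges asparagine, had 110.1, 91.3 and 100.98 TPM in R1ko, against 128.0, 80.5 and 105.1 TPM in WT. For both as deposited, WT replicate 2 was lowest and the remaining WT libraries lay among or above those of R1ko.

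Wars, the tryptophanyl enzyme and a well-known target of interferon gamma, was highest in R1ko replicate 3. It measured 57.4, 50.5 and 76.1 TPM in R1ko, against 59.0, 52.3 and 58.8 TPM in WT. Only R1ko replicate 3 lay above all WT libraries. After scaling it had 71.4, and WT replicate 2 came next, at 66.6. The minor Wars transcript ENSMUST00000161410 was high in the same libraries. It had 1.89, 1.64 and 14.3 TPM in R1ko, against 1.51, 11.7 and 2.20 TPM in WT. The main transcript ENSMUST00000109848 had 50.3, 45.2 and 53.1 TPM in R1ko, against 52.8, 35.6 and 49.9 TPM in WT. Yars, which charges tyrosine, had 56.1, 42.9 and 57.7 TPM in R1ko, against 56.6, 42.9 and 54.5 TPM in WT. As deposited, its values were almost the same in both genotypes, library 2 of each being low. After scaling, R1ko replicate 2 was lowest, at 46.8, and WT replicate 2 highest, at 54.5.

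Enzymes of the multi-synthetase complex differed widely in level. Qars, the glutaminyl enzyme, had 90.9, 83.9 and 90.1 TPM in R1ko, against 92.5, 71.2 and 100.8 TPM in WT. Rars, the arginyl enzyme, had 48.1, 46.1 and 48.8 TPM in R1ko, against 57.7, 34.5 and 52.2 TPM in WT. Dars, the aspartyl enzyme, had 36.9, 39.9 and 42.0 TPM in R1ko, against 42.2, 32.1 and 43.5 TPM in WT. In all 3 the R1ko libraries, as deposited, lay inside the range of the WT ones. Eprs, a fused enzyme for glutamate and proline, measured 37.5, 29.1 and 32.8 TPM in R1ko, against 41.4, 23.8 and 36.8 TPM in WT. The isoleucyl enzyme Iars had 22.4, 18.0 and 19.3 TPM in R1ko, against 24.9, 17.6 and 26.1 TPM in WT. Lars, the cytosolic leucyl enzyme and a sensor of leucine for the growth kinase mTORC1, had 18.7, 17.7 and 18.3 TPM in R1ko, against 22.4, 15.7 and 20.4 TPM in WT. Lars, the cytosolic counterpart of Lars2, showed no peak in WT replicate 2, its lowest library.

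The remaining cytosolic enzymes lay between the levels of Tars and Cars. Tars, the threonyl enzyme, measured 37.6, 33.1 and 36.4 TPM in R1ko, against 40.9, 28.6 and 38.8 TPM in WT. Hars, the histidyl enzyme and the Jo-1 autoantigen of human myositis, had 32.8, 32.9 and 34.4 TPM in R1ko, against 35.4, 27.3 and 36.4 TPM in WT. With TPM as deposited, both were steady within R1ko, inside the range of WT. After scaling, R1ko libraries of both lay partly outside that range. Farsa and Farsb encode the α and β subunits of the phenylalanyl enzyme. Farsa had 25.4, 19.7 and 26.2 TPM in R1ko, against 28.5, 18.4 and 26.5 TPM in WT. Farsb had 33.95, 32.3 and 33.5 TPM in R1ko, against 41.6, 23.9 and 34.5 TPM in WT. The β subunit was thus higher than the α subunit in each library.

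Vars, the valyl enzyme, had 29.8, 23.1 and 36.1 TPM in R1ko, against 38.1, 25.8 and 34.9 TPM in WT. As deposited, it varied as much among R1ko mice as among WT. After scaling, its SD was 4.45 in R1ko and 0.98 in WT (n = 3 each). Aars, the alanyl enzyme, had 24.9, 24.5 and 27.5 TPM in R1ko, against 27.7, 21.2 and 28.0 TPM in WT. Cars, the cysteinyl enzyme, was the lowest of the cytosolic group, with 14.98, 13.0 and 16.4 TPM in R1ko, against 18.9, 14.0 and 18.9 TPM in WT. After scaling, each R1ko library of Cars lay below each WT library. The median log2 fold change of the 17 cytosolic genes was 0.01, with 9 above 0, and −0.02 after scaling, with 3 above 0. Of all genes, 55.7% lay above 0 as deposited and 49.4% after scaling.

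Gars, the glycyl enzyme, measured 65.0, 60.6 and 62.0 TPM in R1ko, against 73.4, 45.6 and 65.2 TPM in WT. Kars, the lysyl enzyme, which in its cytosolic form belongs to the multi-synthetase complex, had 104.9, 98.9 and 111.0 TPM in R1ko, against 112.1, 82.3 and 107.5 TPM in WT. These genes for both compartments were near the top of the family, at means of 62.0 and 102.8 TPM over the 6 libraries.

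The mitochondrial enzymes other than Lars2 were expressed at a lower level. Their means over the 6 libraries ran between 3.04 and 42.2 TPM with a median of 9.67 TPM, while those of the cytosolic enzymes ran between 16.0 and 146.9 TPM with a median of 33.6 TPM. The median member of the mitochondrial group measured 9.81, 8.72 and 10.7 TPM in R1ko, against 10.8, 7.92 and 11.3 TPM in WT. The cytosolic median member measured 36.9, 32.9 and 36.1 TPM in R1ko, against 41.4, 27.3 and 36.8 TPM in WT. The gap between compartments was thus present in every library and far wider than the gap between genotypes.

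Iars2, the isoleucyl enzyme of mitochondria, led this group with 43.7, 40.5 and 39.5 TPM in R1ko, against 45.8, 35.01 and 48.8 TPM in WT. Rars2, the arginyl enzyme, which in humans is mutated in a form of pontocerebellar hypoplasia, had 35.6, 32.1 and 33.6 TPM in R1ko, against 39.6, 24.6 and 35.3 TPM in WT. For both, all R1ko libraries lay within the WT range as deposited. Hars2, the histidyl enzyme and like Lars2 a gene of Perrault syndrome in humans, had 33.4, 18.6 and 29.0 TPM in R1ko, against 34.04, 25.7 and 36.6 TPM in WT. R1ko replicate 2 was its lowest library, and the groups overlapped. With protein-coding transcripts only, WT replicate 2 was lowest, at 10.8 TPM, and R1ko replicate 2 had 11.9 TPM. The log2 fold change of Hars2 was −0.27, and 0.007 with protein-coding transcripts only.

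Fars2, the phenylalanyl enzyme, had 22.0, 21.4 and 21.2 TPM in R1ko, against 21.5, 16.6 and 21.8 TPM in WT. As deposited, the R1ko libraries of Fars2 differed by little, and WT replicate 2 stood below them. Neither was kept after scaling, at 20.7, 23.3 and 19.9 in R1ko, against 19.0, 21.1 and 19.9 in WT. Vars2, the valyl enzyme, had 17.5, 9.75 and 16.8 TPM in R1ko, against 24.7, 14.4 and 19.3 TPM in WT. It had the widest range among the 34, at 2.54-fold, and the lowest log2 fold change, −0.41 ± 0.25 (SE). That value was −0.14 without R1ko replicate 2, −0.22 without WT replicate 1 and −0.02 with protein-coding transcripts only. R1ko replicate 2 was the lowest and WT replicate 1 the highest library of Vars2.

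Nars2, the asparaginyl enzyme, had 16.7, 14.4 and 17.1 TPM in R1ko, against 16.6, 14.6 and 19.3 TPM in WT. Tars2, the threonyl enzyme, had 10.6, 8.72 and 10.8 TPM in R1ko, against 12.6, 8.74 and 12.0 TPM in WT. R1ko replicate 2 gave the lowest value of each. The other 8 mitochondrial genes, Aars2, Cars2, Ears2, Mars2, Pars2, Sars2, Wars2 and Yars2, had group means under 10 TPM. Of these, Cars2 (cysteine) was highest, with 9.81, 8.89 and 9.39 TPM in R1ko, against 10.8, 7.83 and 11.3 TPM in WT. Without Lars2 the median log2 fold change of the mitochondrial group was −0.05, with 4 of 15 above 0, and −0.08 after scaling, with 3 above 0. The shares of all genes above 0 were 55.7% and 49.4%.

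For 12 amino acids the list held a separate mitochondrial and cytosolic enzyme, and their ratio does not depend on the scaling of a library. The cytosolic enzyme was the higher in all 6 libraries for 9 of the 12 pairs, and the mean ratio of either group was lowest for serine, where Sars2 over Sars was 0.0402, 0.0416 and 0.0447 in R1ko and 0.0406, 0.0603 and 0.0455 in WT. Isoleucine went the other way, with Iars2 over Iars at 1.95, 2.26 and 2.05 in R1ko and 1.84, 1.99 and 1.87 in WT. For histidine the mitochondrial enzyme was the higher in 2 libraries, R1ko replicate 1 and WT replicate 3. That holds for summed transcripts only. Protein-coding transcripts of Hars2 came to 13.4, 11.9 and 14.5 TPM in R1ko and 14.4, 10.8 and 14.5 TPM in WT, below Hars in every library. Lars2 over Lars was 73.1, 239 and 44.1 in R1ko, against 100, 990 and 72.1 in WT.

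The genotypes did not overlap in the ratios of 2 pairs. Aars2 over Aars was 0.205 ± 0.017 in R1ko and 0.238 ± 0.007 in WT (SD, n = 3 each). Tars2 over Tars was 0.281 ± 0.016 in R1ko and 0.308 ± 0.002 in WT (SD, n = 3 each). The mitochondrial enzyme was thus relatively lower in each R1ko library for alanine and threonine. These are 2 of 12 ratios, and 18.5% of single genes were apart after scaling, so the count stays near that of genes at large.

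**Figure D4:**
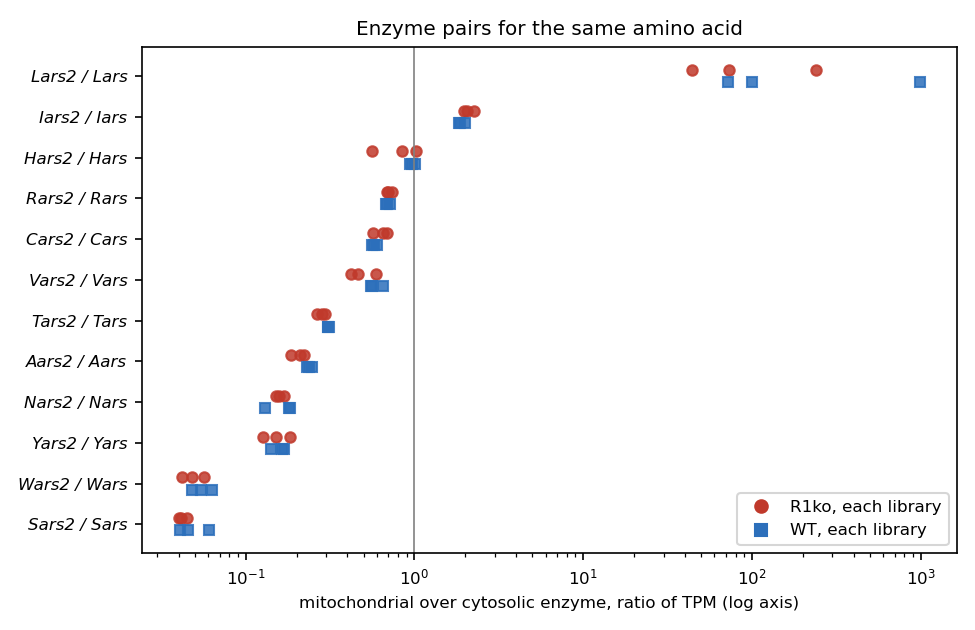
Ratio of the TPM of the mitochondrial enzyme to that of the cytosolic enzyme for the same amino acid, on a log axis, with R1ko libraries as circles above WT libraries as squares; the line marks equal levels. Lars2 over Lars lies between 44.1 and 990, Iars2 over Iars near 2, and the other pairs lie around or below 1.

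Single transcripts were read beside the sums. The members had 175 transcripts with a value. Of the 92 tested without Lars2, 0 passed the adjusted threshold (limma), where 0.0419% of 31056 transcripts did, and 4 had an unadjusted p under 0.05, where 5.02% did. In 7 of the 92, or 7.61%, the groups did not overlap, and all 7 were lower in R1ko, where 8.19% of all transcripts were apart in either direction and 3.96% in that one. After scaling, 15 were apart, 10 lower and 5 higher in R1ko, beside 18.5% of all transcripts, and 9 had an unadjusted p under 0.05, where 11.2% did. A single shared direction was thus not kept after scaling. As deposited, the 7 belonged to Farsb, Rars2, Vars2, Wars2 and Yars with 1 each and to Vars with 2. A Vars2 transcript with a retained intron, ENSMUST00000171536, had 1.36, 1.72 and 2.57 TPM in R1ko, against 3.78, 3.23 and 4.95 TPM in WT. The minor Farsb transcript ENSMUST00000188247 had 2.95, 2.77 and 2.44 TPM in R1ko, against 5.33, 3.65 and 4.24 TPM in WT.

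Not all synthetase RNA was in protein-coding transcripts. The most abundant transcript was protein coding in 33 genes. In Hars2 it was a retained intron of 406 bases and in Nars2 a processed transcript of 606 bases. Protein-coding transcripts made up 34.01% of the summed TPM in Vars2, 37.4% in Nars2, 38.7% in Yars and 44.9% in Hars2. Values of some genes also rest on sequence held in common with a neighbour. The main transcript shared 36.8% of its 31-base stretches with Rab3gap2 in Iars2, 22.7% with Exosc6 in Aars and 19.7% with Naxd in Cars2, so the split of reads between those genes is uncertain.

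The other genes of the pathway gave no call either. Of 17 tested partners and accessory factors of the synthetases, 0 passed the threshold, where 0.267% of all genes did. With so low a share over all genes, 0 calls in a short list says little about that list. The median log2 fold change of these partners was 0.04. Aimp1, a scaffold of the multi-synthetase complex, measured 90.5, 93.8 and 92.0 TPM in R1ko, against 93.1, 68.8 and 95.6 TPM in WT. The smallest p in this list were those of Qrsl1, a subunit of the mitochondrial enzyme that makes glutaminyl-tRNA, at a log2 fold change of −0.21, and Prorsd1, a relative of prolyl-tRNA editing enzymes, at 0.15. Of 30 tested genes of the ATF4 amino acid response, 0 passed, with a median of 0.01. Eif4ebp1, a repressor of translation, and the stress protein gene Nupr1 had the smallest p in that list, at 0.12 and 0.14 unadjusted.

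The machinery downstream of the mitochondrial synthetases did not pass either. Of 17 tested mitochondrial translation factors and tRNA-processing genes, 0 passed, where 0.267% of all genes did, with a median log2 fold change of −0.03. Guf1, a mitochondrial translation GTPase, came nearest, with 10.2, 9.22 and 10.96 TPM in R1ko, against 15.2, 11.02 and 15.4 TPM in WT, a log2 fold change of −0.42 and an unadjusted p of 0.071. The initiation factor gene Mtif3 followed at 0.21. Of 78 tested genes for mitochondrial ribosomal proteins, 0 passed, with the smallest p in Mrps6 and Mrpl53. Their median was 0.08, and 62 lay above 0, where 55.7% of all genes did. As with the synthetases, most of these were lowest in WT replicate 2, namely 73 of 78, where 67.9% of all genes were. In these lists and among the neighbours of Lars2, 0 genes had an unadjusted p under 0.05 in limma with TPM as deposited. The share of all genes was 3.69%. After scaling, 0 passed the adjusted threshold, where 0.0421% of all genes did.

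Markers of other tissues differed between libraries and, for several tissues, between genotypes. With TPM as deposited, all 3 hair follicle markers passed the adjusted threshold (limma), lower in R1ko. Of 4 adipocyte and 3 tested neutrophil markers, 1 each passed, higher in R1ko, where 0.267% of all genes passed. After scaling, 0 of these markers passed. All 5 skeletal muscle markers had an unadjusted p under 0.05 (limma), higher in R1ko, where 3.69% of all genes had one. The 5 skeletal muscle markers summed to between 739 and 1917 TPM in R1ko and between 130 and 1957 TPM in WT. The 4 adipocyte markers summed to between 78.9 and 112.5 TPM in R1ko and between 15.8 and 54.5 TPM in WT, and the 3 hair follicle markers to between 3.97 and 10.1 TPM in R1ko and between 9.83 and 66.6 TPM in WT. The 5 B and plasma cell markers summed to between 13.6 and 24.4 TPM in R1ko and between 21.3 and 33.5 TPM in WT, and the 4 neutrophil markers to between 216 and 240 TPM in R1ko and between 150 and 209 TPM in WT. Of 4 pancreatic acinar markers, Cela1 alone passed the filter on low values. The part of these differences in the synthetase values was not tested.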

How the data were processed

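The authors deposited 1 table of TPM per transcript, here treated as a signal because 1433 repeated lines lift its column sums. Per the submitters' processing notes, reads were quantified with kallisto 0.43.1 and tested with sleuth on build mm10; per the labels' protocols, libraries were made from polyadenylated RNA with a SMARTer kit. The series' design text gives paired reads of 50 bases and an average of 30 M per sample. TPM do not keep the depth of a library, and intervals for counting error cannot be had from them.

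Of 131206 transcripts, 43008 had no value. Each transcript was taken once and TPM were summed per gene symbol. Genes whose mean reached 1 TPM were fitted as log2(TPM + 0.5), a scale that understates changes of low genes, with limma 3.58.1 in R 4.3.3 (lmFit, eBayes with a variance trend), over all 14248 genes or 31056 transcripts, with Benjamini-Hochberg adjustment and a threshold of 0.05. The code was tested on simulated data. Nothing in the labels says more of how the mice were bred or housed. The p-values weigh each difference against the spread between these 6 mice, with variances drawn towards the trend over all genes.

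The members and lists were chosen with earlier results of these data known. Named were members with a mean of at least 10 TPM in a genotype, the 5 genes closest to Lars2, and the 2 genes of smallest p in each list; Aimp1, Exosc7, Cars2, the gene-less transcripts and single member transcripts were picked after their values were seen. Shared 31-base stretches and alignments (blastn 2.17.0, e-value at most 1e-05) used GENCODE M21. A promoter sequence of Aars is not reported here. Alternatives were other pseudocounts, filters and scalings, the replicate block, each library left out, and protein-coding transcripts only.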

Additional observations from a re-analysis of the deposited data

How the results depend on the processing

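With TPM as deposited, 38 genes and 13 transcripts passed the threshold. The gene count was 24 with a pseudocount of 0.1, 2 with no filter, 142 with a filter at 5 TPM, 6 after median-of-ratios scaling and 4 after rescaling over transcripts with a gene. It ran between 20 and 298 with 1 library left out (20 without WT replicate 2, 298 without WT replicate 1). The transcript count was 7 with a pseudocount of 0.1, 1 with no filter and 23 with a filter at 5 TPM, and between 1 and 61 with 1 library left out (1 without WT replicate 2, 61 without R1ko replicate 1). The cause was not tested. The number of the 34 other synthetases that passed was 0 under each of these alternatives. With the replicate number as a block, 71 genes, 1 transcript and 0 synthetases passed. Deviations of same-numbered libraries correlated at 0.052, 0.132 and 0.184, and R1ko replicate 1 correlated better with WT replicate 3, at 0.098, so the numbers were not taken to pair the mice.

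The log2 fold change of Lars2 ran between −1.82 and −0.12 with 1 library left out, the last without WT replicate 2. Of 473 alternative log2 fold changes of the other members, 472 stayed within the spread between replicates, and Sars2 moved to −0.15 when rescaled over transcripts with a gene. TPM hide the depth of each library, so how counting error bears on the low members, such as Wars2, cannot be given.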
